A study of Homo sapiens with 30 samples.

Results

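The genes described here are the insulin-like growth factor (IGF) ligands IGF1 and IGF2, the receptors IGF1R, INSR and IGF2R, and the receptor adaptors IRS1 and IRS2. They were taken by name, as the rows whose Ensembl identifier pairs with one of these symbols, and make up 7 of the 33538 genes in the deposited count table. The data are poly(A) RNA-seq of Ewing sarcoma cell lines given BMS-986158, which blocks the acetyl-lysine-binding bromodomains of the BET family, or its vehicle dimethyl sulfoxide (DMSO). There were 30 libraries in 10 groups of 3. CHLA10, A673 and TC32 cells received 5 nM BMS-986158 or DMSO for 72 hours, called 3 days here. CHLA10 and A673 cells were also treated continuously for 20 days, a state the labels call persister, each with a 20-day DMSO group. The labels do not say for how long the 20-day vehicle cells had vehicle. All groups carry the EWS::FLI1 fusion, and every library is labelled as the same batch. A673 and TC32 were grown in RPMI1640 with 10% serum and L-glutamine, and CHLA10 in IMDM with 20% serum, L-glutamine and ITS-X, a supplement that contains insulin. Line and medium therefore cannot be told apart where CHLA10 is compared with A673 or TC32. Each line is a single established culture, so a difference between lines is one between these cultures. Nothing in the labels says that the libraries of a group came from separate cultures, so the p-values measure the spread between libraries, which may be technical.

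IGF1 and IGF2 are secreted peptides that bind the tyrosine kinase IGF1R; IGF2 and insulin also act through the closely related kinase INSR, and the 2 kinases can pair as hybrid receptors. Phosphorylated receptors recruit IRS1 and IRS2, which pass the signal to PI3K, AKT and mTOR and to the RAS and MAPK cascade. IGF2R has no kinase domain: it takes IGF2 up for degradation and carries mannose 6-phosphate-tagged enzymes to lysosomes. Signalling through IGF1R is a long-studied growth and survival input of Ewing sarcoma cells.

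The libraries held 16083677 to 48949739 counts. All 10 Ewing sarcoma markers on the list used reached 1 CPM (a counts-per-million value, scaled by the TMM factors of edgeR) in at least 1 library, although NKX2-2 averaged 1.20 CPM ± 0.128 (SD, n = 3) in vehicle CHLA10 at 3 days. With BMS-986158, 5 and 7 of the 10 fell in CHLA10 at 3 and 20 days, 4 and 8 in A673, and 4 in TC32. None rose in any comparison (adjusted p under 0.05, edgeR), where 15.7% to 22.8% of all genes tested fell. Their median log2 change lay between -0.96 and -0.34. Of the 6 blood cell markers, 2 reached 1 CPM in at least 1 library, as did PECAM1 and KDR (2 of 5) of the endothelial and EPCAM, KRT8, KRT18 and ESRP1 (4 of 6) of the epithelial ones; these lists summed to at most 20.71, 10.5 and 649.1 CPM in a library. PTPRC, CD3E, CD14 and LYZ (blood cells), VWF, CDH5 and TEK (endothelium) and CDH1 and KRT19 (epithelium) stayed below 1 CPM in every library. Of the 3 tested genes commonly read as markers of BET inhibition, HEXIM1 and SERPINI1 rose in all 5 comparisons with vehicle, by log2 0.66 to 1.06 and 1.82 to 3.20. MYC, often lowered by BET inhibitors, rose in A673 at 3 and 20 days (log2 0.45 and 0.69) and in TC32 (0.77), fell in CHLA10 at 20 days (-0.28) and did not pass in CHLA10 at 3 days (0.20, adjusted p = 0.13, edgeR). Among all libraries, 4 stood farthest from the others of their group: library 3 of 20-day BMS-986158 A673, of 3-day DMSO A673 and of both 20-day CHLA10 groups. The results that turn on them are given with and without them. In whole-culture RNA, fewer cells that express a gene and less RNA per cell cannot be told apart.

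IGF1 mRNA fell with BMS-986158 in every comparison with vehicle and IGF2 counts were lower in treated than in vehicle A673, while the receptors and adaptors changed by smaller log2 values. INSR, IRS1 and IRS2 were each called higher in some comparisons and lower in others, whereas IGF1R and IGF2R were called only higher. A gene was called at an adjusted p (edgeR quasi-likelihood test, Benjamini-Hochberg over the 16713 genes tested) under 0.05. In CHLA10 at 3 days, 1 of the 7 genes rose and 2 fell, where 29.8% of all genes tested were called, 14% higher and 15.7% lower. In CHLA10 at 20 days 1 rose and 2 fell, with 33.7% of all genes called (16.5% higher, 17.2% lower). In A673 at 3 days none rose and 4 fell, with 33.7% called (15.3% higher, 18.4% lower); 0 were higher at an unadjusted p under 0.05, and 0 rose by DESeq2 or limma-voom. In A673 at 20 days 2 rose and 4 fell, with 39.7% called (19.7% higher, 19.9% lower). In TC32 at 3 days 5 rose and 1 fell, with 45.1% called (22.3% higher, 22.8% lower). The median log2 change of the 7 genes was 0.00 and -0.15 in CHLA10 at 3 and 20 days, -0.56 and -0.49 in A673, and 0.48 in TC32, while the median over all genes lay between -0.02 and 0.00 in each comparison. All 7 genes passed the filter on low counts, IGF2 only through the vehicle A673 libraries; its A673 calls, included in these counts, are therefore a description and support nothing.

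**Figure D1:**
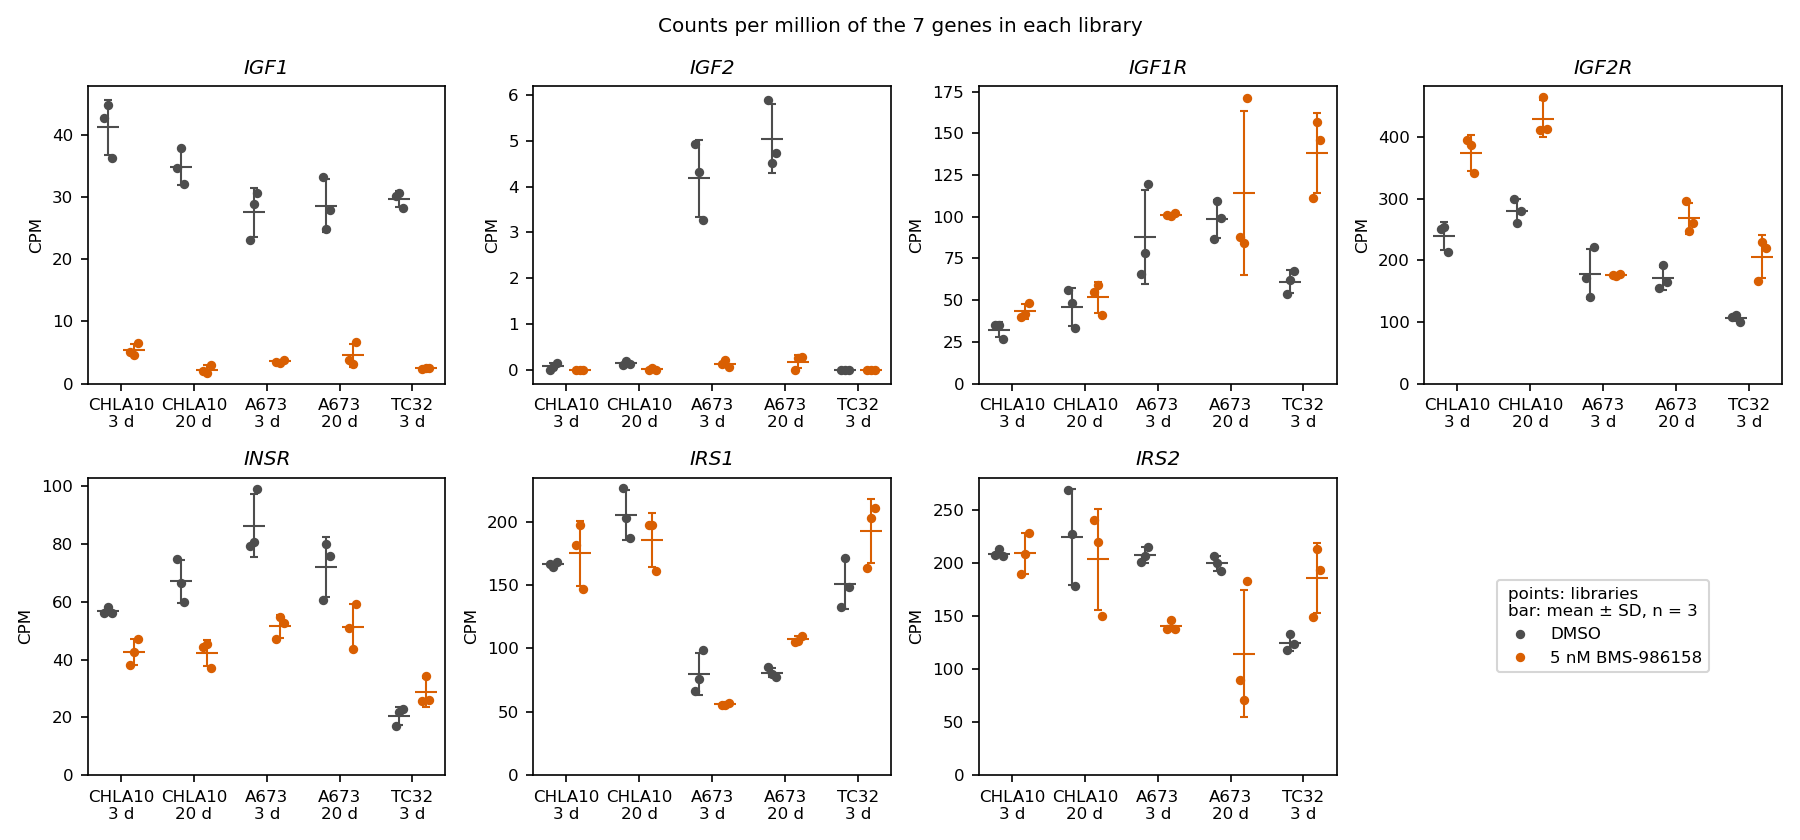
Level in counts-per-million (CPM, linear axes that differ between panels) of the 7 genes in each of the 30 libraries, by line and time; points are libraries, and bars are the mean ± SD of 3 libraries treated with DMSO (grey) or 5 nM BMS-986158 (orange). IGF1 is at 23.2 CPM or more in every vehicle library and at 6.69 CPM or less in every treated one, and IGF2 is above 1 CPM in the vehicle A673 libraries alone.

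IGF1 (ENSG00000017427, GRCh38 chr12:102395874-102481744, minus strand) was the ligand found in all 3 lines. RefSeq (GRCh38.p14) lists 2 starts for it. The 250 bases before the upstream start, chr12:102481748-102481997 on the minus strand, are printed 5′ to 3′ because this gene responded most uniformly; the capitals mark the only match to GTAAACA, a forkhead (FOXO) motif, at bases -247 to -241.

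IGF1: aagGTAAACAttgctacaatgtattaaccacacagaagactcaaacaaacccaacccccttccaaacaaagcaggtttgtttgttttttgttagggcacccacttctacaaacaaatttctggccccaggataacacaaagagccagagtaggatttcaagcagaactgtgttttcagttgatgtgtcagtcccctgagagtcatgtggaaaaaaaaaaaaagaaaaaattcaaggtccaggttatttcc

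The motif was chosen after this sequence had been seen. It occurs on either strand in 2.98% of the 35116 RefSeq promoter windows of the same length, and a match is a description of letters only. The window is 39.6% G and C, and that before the other start 44%, against a median of 58% over all windows and 76.4% to 81.2% for IGF1R, IGF2R, INSR, IRS1 and IRS2. The gene-level counts do not tell which start was used.

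Vehicle CHLA10 held 42.7, 44.9 and 36.3 CPM of IGF1 at 3 days, against 5.13, 4.54 and 6.50 CPM with BMS-986158. At 20 days the vehicle libraries held 34.7, 37.95 and 32.1 CPM and the treated ones 2.06, 1.66 and 3.02 CPM. No treated library reached the lowest vehicle library at either time, and the 20-day treated libraries all lay below the 3-day ones. IGF1 fell by 2.94 ± 0.21 log2 units (SE, 7.65-fold, adjusted p = 7.74e-11, edgeR) at 3 days and fell by 3.96 ± 0.22 (15.6-fold, adjusted p = 4.19e-13, edgeR) at 20 days. The 20-day fall was larger than the 3-day fall by a log2 difference of -1.02 ± 0.29 (adjusted p = 0.0324, edgeR). That difference kept its direction in all 20 alternatives (adjusted p 0.000163 to 0.0982). Of the 12 fits that left out a single CHLA10 library, it passed only without the 3-day treated library 2, the 20-day treated library 3 or the 20-day vehicle library 3.

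In A673 the vehicle libraries held 23.2, 28.9 and 30.7 CPM of IGF1 at 3 days and the treated ones 3.52, 3.35 and 3.79 CPM. At 20 days these were 33.2, 24.8 and 27.9 CPM with vehicle and 3.81, 3.11 and 6.69 CPM with BMS-986158. Vehicle and treated libraries were again fully separate at both times. IGF1 fell by 2.95 ± 0.21 log2 units (SE, adjusted p = 7.96e-11, edgeR) at 3 days and fell by 2.65 ± 0.21 (adjusted p = 1.39e-10, edgeR) at 20 days. These falls differed by 0.30 on the log2 scale (95% interval -0.26 to 0.86, adjusted p = 0.596, edgeR). TC32 held 30.3, 30.8 and 28.3 CPM with vehicle and 2.32, 2.55 and 2.56 CPM with BMS-986158, a fall by 3.59 ± 0.22 log2 units (12-fold, adjusted p = 4.59e-12, edgeR). At 20 days the fall was smaller in A673 than in CHLA10, by log2 1.31 ± 0.29 (adjusted p = 0.00171, edgeR), and this held in all 20 alternatives (adjusted p 0.000186 to 0.0357). Among the 10 groups, the 5 vehicle groups ranked above the 5 treated groups, with vehicle CHLA10 highest.

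IGF2 (ENSG00000167244, GRCh38 chr11:2129112-2149603, minus strand), an imprinted fetal growth factor, was found at an appreciable level only in A673. Vehicle A673 held 4.95, 4.33 and 3.28 CPM at 3 days (84, 104 and 87 counts) and 0.114, 0.199 and 0.0607 CPM after BMS-986158 (2, 5 and 3 counts). At 20 days the vehicle libraries held 5.91, 4.51 and 4.75 CPM (165, 123 and 98 counts) and the treated ones 0, 0.254 and 0.268 CPM (0, 4 and 5 counts). IGF2 thus went from 275 counts over the 3 vehicle libraries to 10 over the 3 treated ones at 3 days, and from 386 to 9 at 20 days. The fitted log2 differences were -5.12 ± 0.60 (SE) at 3 days and -4.85 ± 0.60 at 20 days, given as a description with no test, because IGF2 entered the fit only through these vehicle libraries.

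In CHLA10 the IGF2 counts were 0, 1 and 3 with vehicle and 0 in each treated library at 3 days. At 20 days they were 2, 4 and 2 with vehicle and 0, 1 and 0 with BMS-986158. Neither comparison passed with edgeR (adjusted p = 0.0811 and 0.0556). The 3-day comparison passed in 0 of 13 alternatives, and the 20-day one in 2: with limma-voom (log2 -2.45, adjusted p = 0.0302) and without treated library 2 (adjusted p = 0.0414, edgeR). The 20-day vehicle and treated counts did not overlap, but they came to 8 and 1 in all. TC32 had no IGF2 count in any of its 6 libraries; in the vehicle group this allows up to 0.0564 CPM at 3 counts over the group. The vehicle A673 level at 3 days was 4.07 CPM over the group (95% exact Poisson interval 3.61 to 4.58, counting error only). That level is 72.2-fold the limit of 3 counts in TC32, or 63.9-fold at the lower end of the interval. The exact Poisson upper limit for vehicle TC32 is higher, at 0.0693 CPM, so neither fold is a lower bound. Both are a description, because IGF2 passed the filter only through vehicle A673. Of the 6979 exon bases of IGF2 in GENCODE 29, 5144 are shared on the same strand with ENSG00000284779, which has 0 counts in all libraries, as does the overlapping INS-IGF2. IGF2-AS, on the opposite strand, has 33 counts in all. How shared reads were counted, and whether by strand, is not given in the sources used here, so the IGF2 level is uncertain and the part of shared exons in it was not tested.

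**Figure D2:**
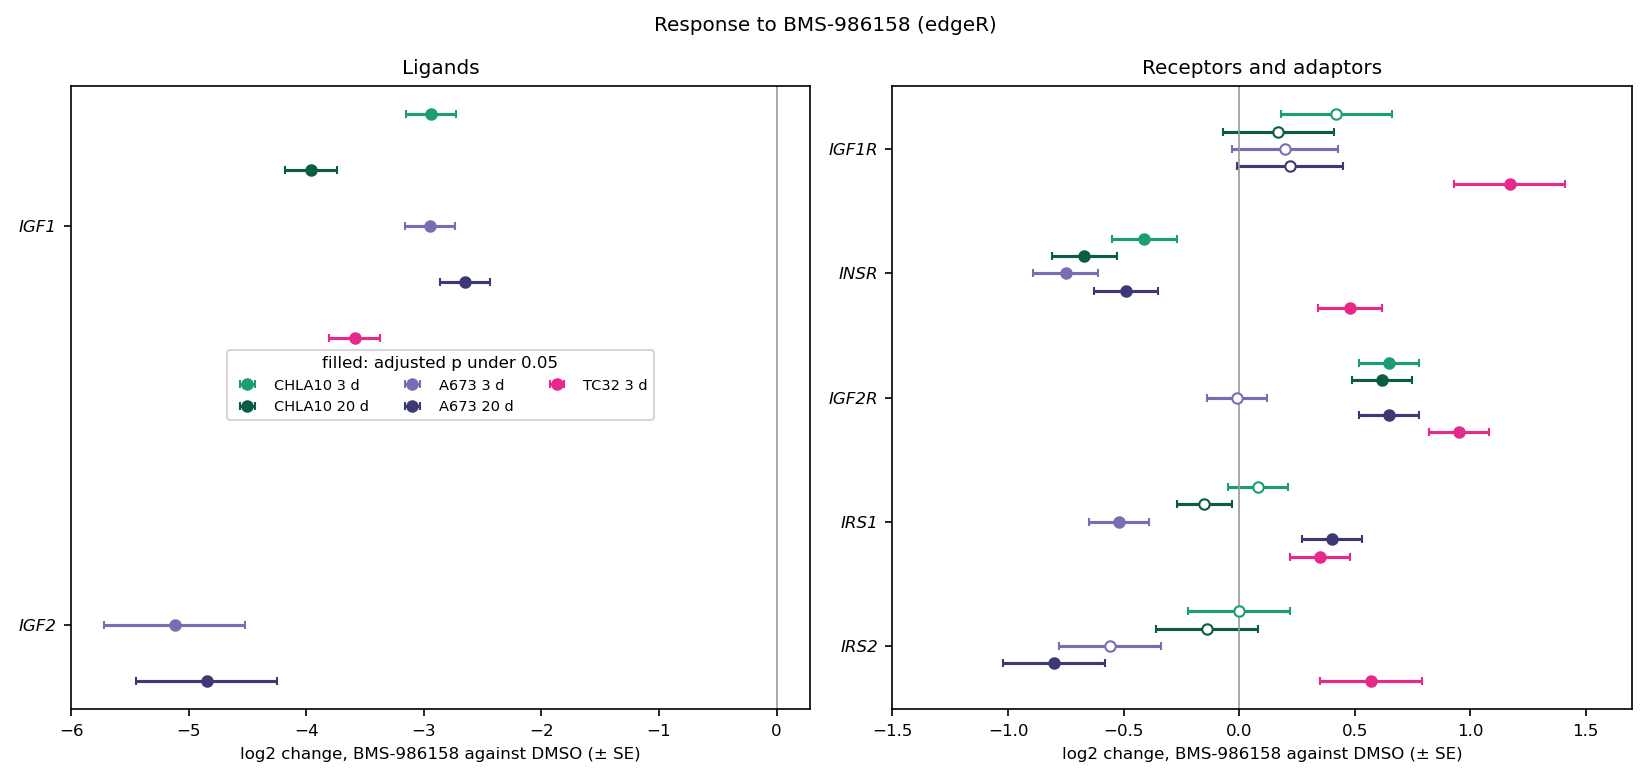
Log2 change with BMS-986158 against DMSO (edgeR, error bars ± SE, 3 libraries a group) of the ligands (left) and of the receptors and adaptors (right), one colour per line and time; the x axes differ between panels. Filled points passed an adjusted p of 0.05, and IGF2 is drawn for A673 alone because the other lines had 8 counts or fewer a group. The IGF2 points are a description. The IGF1 points lie between -3.96 and -2.65, while the receptor and adaptor points lie between -0.80 and 1.17.

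IGF1R (ENSG00000140443, chr15:98648539-98964530, plus strand), the kinase that both ligands bind, passed the test in TC32 alone. TC32 held 53.7, 62.2 and 67.5 CPM with vehicle and 111, 157 and 146 CPM with BMS-986158. Every treated library was above every vehicle library, a rise of log2 1.17 ± 0.24 (SE, adjusted p = 0.000304, edgeR). In CHLA10 at 3 days the values were 34.9, 35.1 and 26.9 CPM with vehicle and 39.7, 41.4 and 48.5 CPM with BMS-986158. These groups did not overlap either, but the log2 difference of 0.42 (95% interval -0.05 to 0.89) had an adjusted p of 0.201 with edgeR; with the spread taken from these 6 libraries alone it was 0.00898, and without the 4 most distant libraries of the series 0.00695. At 20 days the CHLA10 groups overlapped, at 33.6 to 56.0 CPM with vehicle and 41.4 to 58.9 CPM with BMS-986158 (log2 0.17, 95% interval -0.29 to 0.64).

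In A673 the IGF1R result rested on single libraries. Vehicle libraries at 3 days held 65.7, 78.1 and 120 CPM and treated ones 101, 100 and 102 CPM, a log2 difference of 0.20 (adjusted p = 0.543, edgeR). The vehicle library at 120 CPM is one of the 4 distant ones, and mitochondrial genes took 1.99% of its counts against 5.31% and 5.53% in the other two; their part in the result was not tested. Without the 4 distant libraries, IGF1R was higher with BMS-986158 by log2 0.53 (adjusted p = 0.00156, edgeR). At 20 days the vehicle libraries held 86.6, 110 and 99.4 CPM and the treated ones 87.8, 84.3 and 171 CPM. Treated library 3 alone lay above the vehicle range: the log2 difference was 0.22 (adjusted p = 0.499, edgeR) with it and -0.19 without it.

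INSR (ENSG00000171105, chr19:7112255-7294034, minus strand), the insulin receptor, fell in both lines with 2 times and rose in TC32. CHLA10 at 3 days held 56.0, 58.3 and 56.2 CPM with vehicle and 38.2, 42.6 and 47.3 CPM with BMS-986158, and at 20 days 74.7, 66.5 and 59.9 against 44.2, 45.4 and 36.9 CPM. A673 held 79.3, 80.8 and 98.9 CPM against 47.0, 54.7 and 52.7 CPM at 3 days, and 60.4, 80.1 and 75.8 against 51.0, 43.5 and 59.2 CPM at 20 days. In all 4 comparisons every treated library was below every vehicle library. The log2 changes were -0.41, -0.67, -0.75 and -0.49 in that order, each with an SE of 0.14 (adjusted p = 0.0242, 0.000421, 0.000134 and 0.00525, edgeR). The CHLA10 call at 3 days was lost without any 1 of its 6 libraries other than treated library 3 (adjusted p up to 0.129); the other 3 calls held in all 14 alternatives.

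TC32 had the lowest INSR level, at 17.1, 21.7 and 22.8 CPM with vehicle, and 25.7, 34.3 and 25.8 CPM with BMS-986158. INSR there rose by log2 0.48 ± 0.14 (SE, adjusted p = 0.0076, edgeR), with no overlap. The call was lost without treated library 2 (0.33, adjusted p = 0.0864, edgeR) or vehicle library 1 (0.37, adjusted p = 0.065, edgeR). The INSR response of TC32 differed from that of CHLA10 at 3 days by log2 0.89 ± 0.20 (adjusted p = 0.00374, edgeR) and from that of A673 by log2 1.23 ± 0.20 (adjusted p = 9.26e-05, edgeR). Both differences held in all 20 alternatives (adjusted p 0.000233 to 0.022 and 2.19e-07 to 0.000609).

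The balance of the 2 kinases was read as the ratio of IGF1R to INSR, each per kb of exon, within a library, which does not depend on the scaling between libraries. In CHLA10 the mean ratio was 0.426 with vehicle and 0.759 with BMS-986158 at 3 days, and 0.508 and 0.916 at 20 days. In A673 it was 0.751 and 1.48 at 3 days, and 1.03 and 1.64 at 20 days. In TC32 it was 2.24 and 3.64. The ratio was higher with BMS-986158 in all 5 comparisons, by log2 0.64 to 0.99, and treated and vehicle ranges were separate in each (for A673 at 20 days, 1.29 to 2.17 against 0.983 to 1.07). With 3 libraries a group the exact two-sided permutation p was 0.1 in each, the smallest this design allows (0.154 adjusted over the 20 ratio tests made). In CHLA10 and A673 the falls of INSR passed the test and the changes of IGF1R did not, whereas in TC32 both genes rose. The ratio of IGF1 to IGF1R moved the other way, from 2.21 to 0.213 in CHLA10 and from 0.561 to 0.0603 in A673 at 3 days, and from 0.846 to 0.0313 in TC32.

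**Figure D3:**
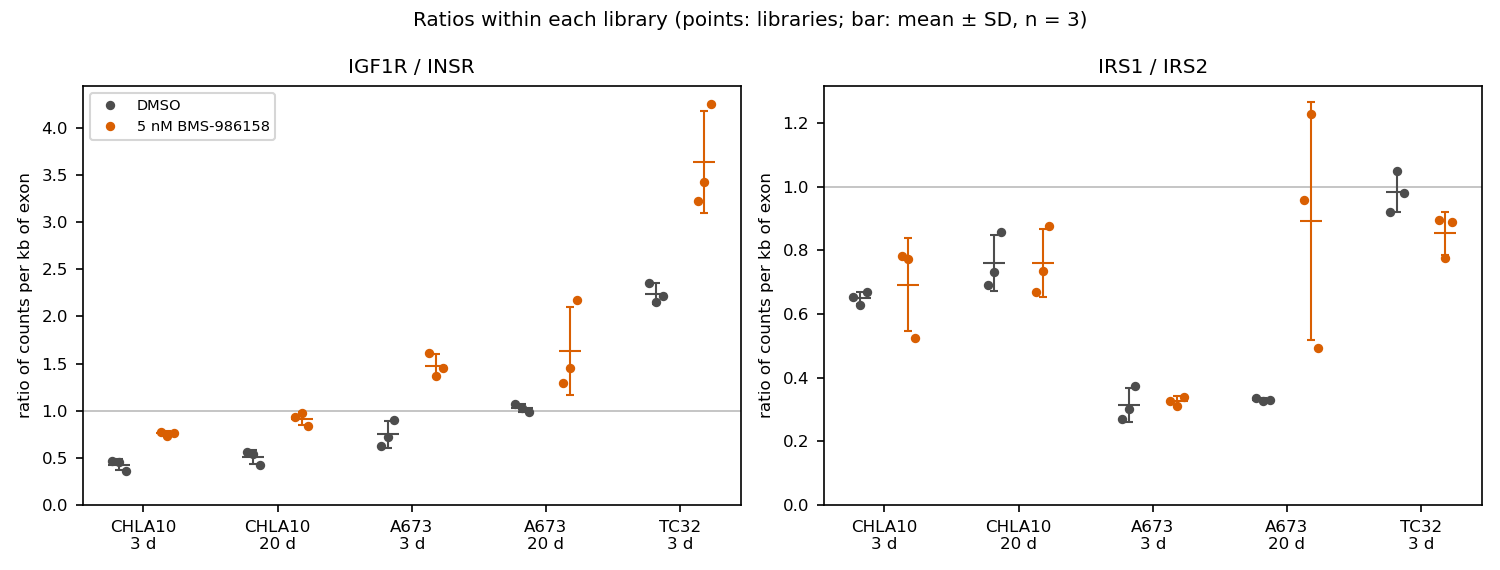
Ratio of IGF1R to INSR (left) and of IRS1 to IRS2 (right), in counts per kb of exon within each library, by line and time; points are libraries, and bars are the mean ± SD of 3 libraries treated with DMSO (grey) or BMS-986158 (orange). The IGF1R to INSR ratio is higher in every treated library than in every vehicle library of its line and time, and the IRS1 to IRS2 ratio stands out in A673 at 20 days, at 0.492 to 1.23 against 0.326 to 0.337.

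IGF2R (ENSG00000197081, chr6:159969099-160113507, plus strand), the clearance receptor, rose in 4 of the 5 comparisons. The 250 bases before its RefSeq start, chr6:159968832-159969081 on the plus strand, are shown because this was the receptor that rose most widely; the capitals mark CACGTG, the E-box, at bases -132, -74 and -28 (first base of each).

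IGF2R: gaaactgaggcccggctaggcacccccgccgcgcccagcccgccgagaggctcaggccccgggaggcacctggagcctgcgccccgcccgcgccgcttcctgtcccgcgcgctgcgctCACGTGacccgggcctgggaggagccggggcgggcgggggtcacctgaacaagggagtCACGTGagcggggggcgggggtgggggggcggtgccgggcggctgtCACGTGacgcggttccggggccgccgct

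At least 1 CACGTG is found in 6.34% of the 35116 promoter windows, and 3 or more in 0.08%. These shares are over windows of any base content (median 58% G and C), whereas the IGF2R window is 79.2% G and C. The matches are a description of letters only. GGAAGGAA, a pair of ETS sites as EWS::FLI1 binds in repeats (3.06% of windows), and TGANTCA, the AP-1 motif (6.57%), were searched on both strands and had no match in these windows of the 6 genes found in the promoter table.

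CHLA10 held 250, 255 and 214 CPM of IGF2R with vehicle and 396, 387 and 341 CPM with BMS-986158 at 3 days, and 300, 261 and 280 against 412, 465 and 413 CPM at 20 days. TC32 held 107, 112 and 101 CPM with vehicle and 167, 230 and 221 CPM with BMS-986158. In A673 at 20 days the values were 155, 192 and 165 against 296, 247 and 260 CPM. The groups were separate in these 4 comparisons, and IGF2R rose by log2 0.65, 0.62, 0.95 and 0.65, each with an SE of 0.13 (adjusted p = 0.000334, 0.000447, 1.32e-06 and 0.000181, edgeR). All 4 calls held in the 14 alternatives. In A673 at 3 days, treated libraries at 176, 175 and 178 CPM lay inside the vehicle spread of 172, 141 and 221 CPM (log2 -0.01, 95% interval -0.26 to 0.24). The A673 response was higher at 20 than at 3 days by log2 0.66 ± 0.18 (adjusted p = 0.0229, edgeR), but this was lost in 8 of 20 alternatives (adjusted p 0.00649 to 0.0856), among them without the 120 CPM vehicle library described for IGF1R (0.47, adjusted p = 0.0636, edgeR).

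IRS1 (ENSG00000169047, chr2:226731317-226799759, minus strand), the first of the 2 adaptors, changed direction with time in A673. It held 66.1, 75.9 and 98.4 CPM with vehicle and 55.5, 55.6 and 57.2 CPM with BMS-986158 at 3 days, a fall by 0.52 ± 0.13 log2 units (SE, adjusted p = 0.00244, edgeR). At 20 days it held 85.2, 79.8 and 77.8 CPM with vehicle and 105, 106 and 110 CPM with BMS-986158, a rise of log2 0.40 ± 0.13 (adjusted p = 0.0118, edgeR). The groups were separate at both times. The 2 responses differed by log2 0.92 ± 0.18 (adjusted p = 0.00196, edgeR), and this held in all 20 alternatives, at 0.67 to 1.04 (adjusted p 4.94e-05 to 0.0145). The rise at 20 days alone was lost when libraries were scaled by their totals only (0.28, adjusted p = 0.104, edgeR). In CHLA10 the log2 changes were 0.08 (95% interval -0.17 to 0.32) at 3 days and -0.15 (-0.39 to 0.10) at 20 days. In TC32, 132, 172 and 149 CPM with vehicle stood against 164, 203 and 211 CPM, with overlap; the rise of log2 0.35 (adjusted p = 0.0237, edgeR) was lost in 4 of the 6 fits without 1 library, all but those without treated library 1 or vehicle library 2 (adjusted p up to 0.134).

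IRS2 (ENSG00000185950, chr13:109752698-109786568, minus strand), the adaptor that insulin and FOXO factors are known to regulate in liver, was lower in treated A673. At 3 days it held 201, 206 and 215 CPM with vehicle and 138, 146 and 137 CPM with BMS-986158. These groups were separate, yet the log2 change of -0.56 ± 0.22 had an adjusted p of 0.0529 (edgeR), and 6 of 14 alternatives took it under 0.05, DESeq2 among them (-0.61, adjusted p = 0.0225). At 20 days 206, 200 and 192 CPM with vehicle stood against 89.6, 70.6 and 183 CPM with BMS-986158, a fall by 0.80 ± 0.22 log2 units (SE, adjusted p = 0.00546, edgeR). Treated library 3 lay near the vehicle range, and without it the change was -1.32. With the spread taken from these 6 libraries alone, the call was lost (adjusted p = 0.0821, edgeR).

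That library also stood apart in IGF1R, and in cell type markers: the 7 fibroblast markers summed to 1596, 1963 and 757.9 CPM in treated libraries 1, 2 and 3, against 323.1 to 354.8 CPM with vehicle, led by COL1A2. The fibroblast list did not move as a set: 2 of the 7 rose and 2 fell in A673 at 20 days (median log2 0.0, edgeR). Of all genes tested, 19.7% rose and 19.9% fell there. The epithelial markers, of which 4 of 6 reached 1 CPM, summed to 649.1, 547.9 and 119.7 CPM against 124.1 to 151.7 CPM, mostly KRT18, with CDH1 and KRT19 below 1 CPM. The part of these markers in the A673 results at 20 days was not tested. In CHLA10 the log2 changes of IRS2 were 0.00 (95% interval -0.43 to 0.43) at 3 days and -0.14 (-0.57 to 0.29) at 20 days. In TC32, IRS2 rose from 118, 134 and 124 CPM to 150, 214 and 194 CPM, by log2 0.57 ± 0.22 (adjusted p = 0.039, edgeR). This call held without treated library 1 and was lost without any other 1 of the 6 libraries (adjusted p up to 0.151), and also with scaling by totals only or with no filter on low counts. The IRS1 to IRS2 ratio in A673 at 20 days averaged 0.331 with vehicle and 0.893 with BMS-986158 (exact two-sided permutation p = 0.1, n = 3 a group).

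TC32 responded differently from A673 at 3 days in 5 of the 7 genes, all with a higher log2 change in TC32, where 24.2% of all genes differed and 12.4% in that direction. The differences were 0.97 ± 0.33 (SE) for IGF1R, 0.96 ± 0.18 for IGF2R, 1.23 ± 0.20 for INSR, 0.87 ± 0.18 for IRS1 and 1.13 ± 0.31 for IRS2 (adjusted p = 0.035, 0.000412, 9.26e-05, 0.000931 and 0.0104, edgeR). The last 4 held in all 20 alternatives, while that of IGF1R was lost in 9 (adjusted p up to 0.13), with 0.69 without the vehicle A673 library at 120 CPM. Against CHLA10, only INSR of the 7 differed in TC32 in the main fit, where 13.8% of all genes did. IGF1 (log2 -0.65, adjusted p = 0.137, edgeR) and IGF1R (0.75, adjusted p = 0.139, edgeR) did not pass. With only the groups of this comparison, or without the 4 distant libraries, 4 of the 7 passed, 3 higher and 1 lower in TC32. A673 differed from CHLA10 at 3 days in IGF2R (log2 -0.66, adjusted p = 0.0192, edgeR) and IRS1 (log2 -0.59, adjusted p = 0.0322, edgeR), with 10.5% of all genes called; without the 4 distant libraries, the IRS1 difference was -0.37 (adjusted p = 0.0525, edgeR). At 20 days it differed in IGF1 and IRS1 (log2 0.55, adjusted p = 0.0251, edgeR), with 21.9% called. The IRS2 difference at 20 days, log2 -0.66 (adjusted p = 0.138, edgeR), did not pass, but it was -1.17 (adjusted p = 0.000161, edgeR) without the treated A673 library 3 and -1.23 (adjusted p = 4.72e-07, edgeR) without the 4 distant libraries. Between 20 and 3 days, 1 gene (IGF1) differed in CHLA10, with 6.32% of all genes called, and 2 (IGF2R and IRS1) in A673, with 7.26% called. These comparisons share vehicle and treated libraries with each other. Of the 7 fibroblast markers, 5 fell and 0 rose in TC32 (median log2 -1.81), where 22.8% of all genes fell and 22.3% rose. Their sum was 650.8 to 732.0 CPM with vehicle and 376.9 to 438.7 CPM with BMS-986158. In A673 at 3 days 2 of the 7 fell and 0 rose, where 18.4% of all genes fell and 15.3% rose. In CHLA10 3 fell and 1 rose at each time. At 3 and 20 days there, 15.7% and 17.2% of all genes fell and 14% and 16.5% rose. The part of these markers in the results at 3 days was not tested.

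Vehicle cells of the 3 lines were also compared with each other at 3 days. In these comparisons 61.1% to 66.6% of all genes tested were called, so the counts below are not read as particular to the 7 genes. Against CHLA10 at 3 days, A673 was higher in 3 and lower in 3 of the 7, with 61.2% of all genes called, and TC32 was higher in 1 and lower in 4, with 61.1% called. Against A673, TC32 was higher in 1 and lower in 4, with 66.6% called. IGF2, higher in A673 than in either other line, is in the counts of both comparisons with A673. It passed the filter only through vehicle A673, so its calls there are a description and support nothing. INSR ranged from 20.5 CPM ± 3.04 (SD, n = 3) in TC32 through 56.8 ± 1.26 in CHLA10 to 86.3 ± 10.9 in A673; TC32 lay below A673 by a log2 difference of -2.07 ± 0.15 (SE, adjusted p = 1.05e-12, edgeR). IGF1R was lowest in CHLA10, at 32.3 CPM ± 4.68 (SD, n = 3), against 61.1 ± 6.94 in TC32 and 87.8 ± 28.2 in A673, and the latter 2 ranges overlapped. The IGF2R means ran in another order, 240 ± 22.7 CPM in CHLA10, 178 ± 40.6 in A673 and 107 ± 5.69 in TC32. Its CHLA10 and A673 ranges overlapped, and the call between them was lost in 2 of 14 alternatives. IRS1 was lowest in A673 (80.2 CPM ± 16.6, SD, n = 3) and IRS2 in TC32 (125 ± 8.09). Per kb of exon, IRS2 was the highest of the 7 in all vehicle libraries of CHLA10 and A673 at 3 days, at means of 25.7 and 25.5 CPM per kb. In TC32, IRS2 and IRS1 (means of 15.4 and 15.2 CPM per kb) overlapped and were not told apart. Between 20-day and 3-day vehicle cells none of the 7 genes was called by edgeR in CHLA10, with 15.1% of all genes called, or in A673, with 6.1% called. At an unadjusted edgeR p under 0.05, 2 differed in CHLA10 (IGF1R and IRS1) and 0 in A673, and DESeq2 and limma-voom each called 0 in both lines.

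The wider pathway was described from lists of known members, each read against the share of all genes called. Over all genes tested, 14%, 15.3%, 22.3%, 16.5% and 19.7% were called higher and 15.7%, 18.4%, 22.8%, 17.2% and 19.9% lower, in CHLA10 at 3 days, A673 at 3 days, TC32, CHLA10 at 20 days and A673 at 20 days. Later series of 5 values follow the same order. Of 11 tested binding proteins and their proteases, which hold and release IGFs outside the cell, 5, 4, 8, 4 and 4 fell and 2, 1, 1, 2 and 2 rose. PAPPA, a protease that frees IGFs by cleaving IGFBP4, fell in all 5 (log2 -2.28, -3.49, -1.64, -2.84 and -3.52), and STC2, an inhibitor of that protease, also fell in all 5 (log2 -2.13, -3.06, -4.92, -3.99 and -5.15). IGFBP7 fell in TC32 (log2 -5.83) and rose by log2 6.22 in A673 at 20 days (from 0.284 to 22.6 CPM). Of 15 tested other adaptors and inhibitors, 5, 6, 9, 6 and 3 rose and 3, 0, 2, 0 and 1 fell; SOCS1, an inhibitor of cytokine and insulin signalling, rose in CHLA10 at 3 days (log2 0.89) and in A673 at both times (0.81 and 1.36) and fell in TC32 (-1.29).

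Downstream, 11, 10, 14, 8 and 12 of 30 tested genes of the PI3K, AKT and mTOR branch rose and 4, 5, 3, 6 and 2 fell. FOXO1, a transcription factor that AKT holds out of the nucleus, rose in 4 of the 5 comparisons, by log2 0.84, 0.74, 0.90 and 1.82, and not in CHLA10 at 20 days (0.41, adjusted p = 0.0672, edgeR). Of 20 genes of the RAS and MAPK branch, 2, 6, 8, 7 and 7 rose and 3, 1, 3, 4 and 2 fell, the CHLA10 shares at 3 days lying near those over all genes; MAPK3, the kinase ERK1, fell in all 5 (log2 -1.87 to -0.67). Of 17 tested genes described as FOXO targets, 8, 4, 9, 7 and 11 rose and 3, 4, 3, 5 and 2 fell. SESN3, a stress-response inhibitor of mTORC1, and BCL2L11, the pro-apoptotic BIM, rose in all 5 (by log2 0.95 to 3.95 and 0.97 to 1.90), whereas FBXO32, a ubiquitin ligase, fell in all 5 (log2 -3.32 to -1.42). The median log2 change of these 17 genes was 0.57, 0.12, 0.49, -0.23 and 0.85.

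**Figure D4:**
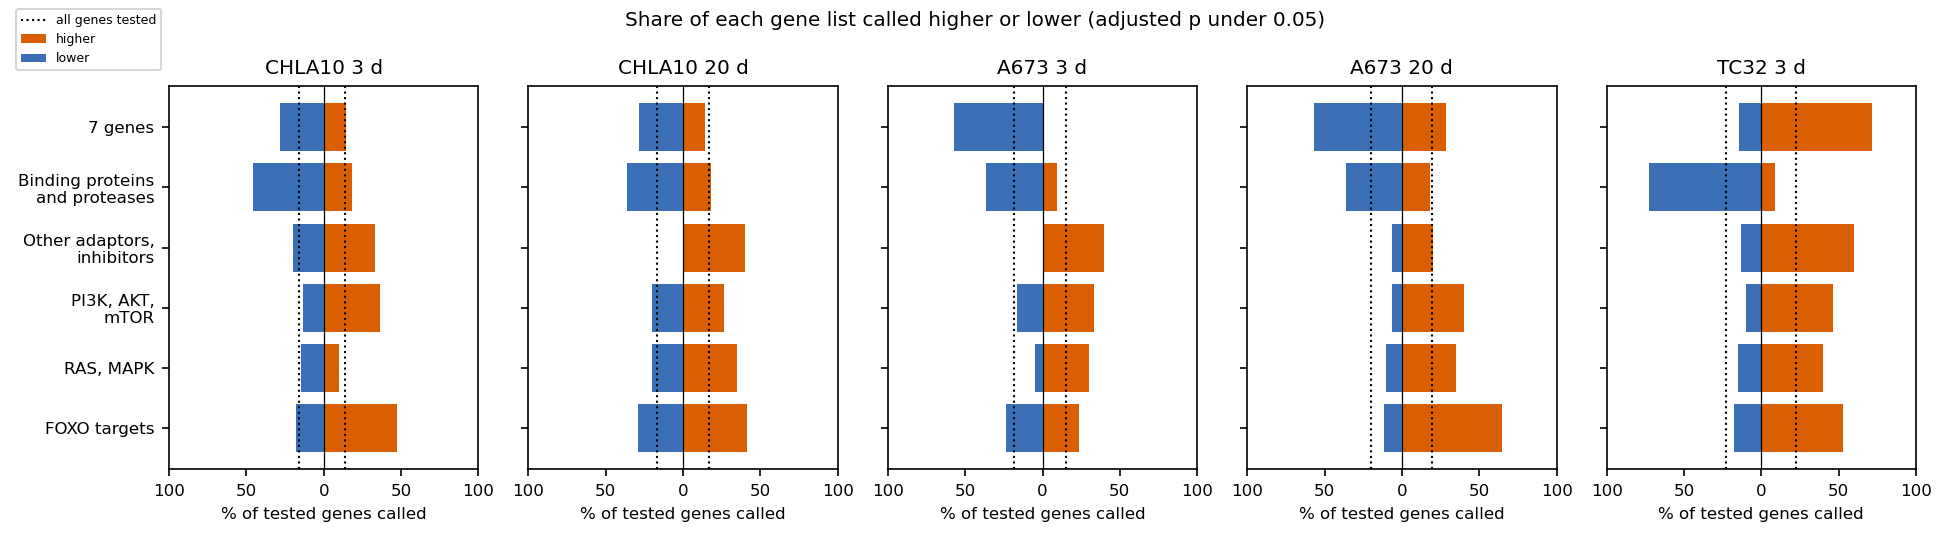
Share of the tested genes of each list called higher (orange, right) or lower (blue, left) with BMS-986158 at an adjusted p under 0.05, one panel per line and time; dotted lines are the shares over all 16713 genes tested. In TC32, 5 of the 7 genes are called higher and 8 of the 11 binding proteins and proteases lower.

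IGF2BP1, which binds IGF2 mRNA among other targets, fell in CHLA10 (log2 -0.47 and -0.55 at 3 and 20 days) and in A673 (-0.41 and -1.47) and rose by 0.39 in TC32. Of the imprinted neighbours of IGF2 on chromosome 11, 5 were tested, of which 0, 1, 0, 1 and 0 rose and 1, 2, 2, 2 and 2 fell. NAP1L4 rose in A673 at 3 days (log2 0.47) and in CHLA10 at 20 days (0.28), and SLC22A18 fell in all but CHLA10 at 3 days (log2 -2.53 to -1.01). CDKN1C, a cell cycle inhibitor, fell in all 5 comparisons (log2 -2.84 to -1.07). Over the 30 libraries, which share lines and treatments, IGF1 correlated best with EMP2 and MYOM2 (Pearson r 0.93 each of log2 CPM) among 10578 genes compared. The closest to INSR were BLTP3A (0.95) and RESF1 (0.94), to IGF1R N4BP1 (0.93) and LONP2 (0.92), and to IGF2R LNPK (0.95) and GGCX (0.94). IRS1 was closest to ZNF543 (0.96) and ZNF160 (0.95), and IRS2 to AVL9 (0.86) and TMEM94 (0.85). IGF2, at or near 0 outside vehicle A673, was closest to UQCRC2 (0.92) and COX10 (0.90).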

How the data were processed

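Poly(A) RNA was sequenced as paired reads of 150 bases, per the labels' protocols. The authors deposited 1 table of raw counts per gene for all 30 libraries; the submitters' processing notes name FastQC, Trim Galore, STAR, DESeq2 and GRCh38, without versions, and no counting tool or strand setting is named there. Of 33538 Ensembl identifiers, 33113 paired with a symbol; coordinates and exon lengths came from GENCODE 29. Columns were mapped to samples by name. The 7 genes and all gene lists were chosen with earlier results of these data known; the rule names up to 4 genes a list, those with the largest mean absolute log2 change over the 5 comparisons among those called at least once, and every member of the short IGF2BP and BET marker lists. One gene that this rule names is not reported here. The 2 genes closest to each of the 7 were those with the highest Pearson correlation.

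Counts were fitted with edgeR 4.0.16 (R 4.3.3): filterByExpr by group, TMM factors, robust quasi-likelihood over all 10 groups, Benjamini-Hochberg adjustment over 16713 genes and a threshold of 0.05. CPM used TMM-scaled totals (16083677 to 48949739 raw counts). Alternatives were DESeq2 1.42.0, limma-voom (limma 3.58.1), relative log expression factors, library totals only, no filter on low counts, only the libraries of a comparison, a replicate block, each library left out in turn, and, chosen after seeing the data, leaving out the 4 libraries most distant from their groups. On simulated data for CHLA10 at 3 days (16446 genes), the test recovered 97% of genes changed by log2 1 and 100% at log2 2, and called 13 unchanged genes. The simulation gave all genes the same dispersion and changed only well-counted ones. It does not measure recovery for genes with a wider spread or for changes under log2 1. No library pair was a duplicate. Same-numbered libraries deviated together most in CHLA10 at 20 days (r = 0.20, 0.15 and 0.36), though treated library 2 there matched another vehicle library better. In TC32 r was 0.10, 0.07 and 0.03. Promoter windows came from RefSeq, GRCh38.p14.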

Additional observations from a re-analysis of the deposited data

Results flagged for a closer look

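The response to BMS-986158 differed between times or lines, by a test of the difference itself in edgeR, for 13 results, given as log2 differences of the responses. Between 20 and 3 days the difference was -1.02 for IGF1 in CHLA10, and 0.66 for IGF2R and 0.92 for IRS1 in A673. A673 differed from CHLA10 at 3 days by -0.66 for IGF2R and -0.59 for IRS1, and at 20 days by 1.31 for IGF1 and 0.55 for IRS1. TC32 differed from CHLA10 by 0.89 for INSR, and from A673 by 0.97 for IGF1R, 0.96 for IGF2R, 1.23 for INSR, 0.87 for IRS1 and 1.13 for IRS2.

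Of these, IRS1 between times in A673, INSR in TC32 against both lines, IGF2R, IRS1 and IRS2 in TC32 against A673, and IGF1 between A673 and CHLA10 at 20 days passed in all 20 alternatives. The others each lost the call in at least 4. IRS1 between A673 and CHLA10 at 3 days passed, of 12 fits without 1 library, only without the treated CHLA10 library 3 or the vehicle A673 library 1 or 2 (log2 -0.71 to -0.41). IRS2 between 20 and 3 days in A673 did not pass (-0.24), but did without the third treated library at 20 days (-0.76, adjusted p = 0.0167, edgeR). Of the 20 alternatives 2 took it under the threshold, and the lowest values over all were log2 -0.83 and an adjusted p of 0.000131 (edgeR).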

How the results depend on the processing

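The calls of IGF1 in all 5 comparisons with vehicle, of IGF1R in TC32 and of the 4 rises of IGF2R held in all 14 alternatives. With DESeq2, the genes called over all tested came to 1729 for the time difference in CHLA10 (1057 by edgeR) and 1689 for the A673 vehicle groups between times (1019). With only the groups of a comparison they came to 591 (A673 time difference, 1214), 2766 (A673 against CHLA10 at 3 days, 1756), 4267 (TC32 against CHLA10, 2307), 4043 (CHLA10 vehicle between times, 2526) and 0 (A673 vehicle between times; 2661 of 14917 at an unadjusted p under 0.05, edgeR). Without the 4 most distant libraries they came to 3154 and 4331 for the time differences in CHLA10 and A673, 4691 and 4689 for A673 and TC32 against CHLA10 at 3 days, 5527 for A673 against CHLA10 at 20 days (3666), and 4975 and 5756 for vehicle between times in CHLA10 and A673. Without single libraries the ranges were 289 to 1978 and 685 to 2346 for the time differences in CHLA10 and A673, 1101 to 2728 and 1292 to 3146 for A673 and TC32 against CHLA10 at 3 days, and 1214 to 2922 and 12 to 3759 for vehicle between times in CHLA10 and A673, the last value without vehicle A673 library 3 at 3 days. Of the 7 genes, the called number went from 2 to 1 with library totals only or only the groups of the comparison (A673 time difference) and with library totals only (A673 against CHLA10 at 20 days), from 1 to 4 with only the groups of the comparison or without the 4 libraries (TC32 against CHLA10), from 0 to 1 and 2 under the same settings for CHLA10 vehicle between times, and from 0 to 1 without the 4 libraries for A673 vehicle. Without single libraries it ranged from 3 to 6 in TC32, 0 to 1 and 1 to 3 for the time differences in CHLA10 and A673, and 0 to 2 and 1 to 3 for A673 against CHLA10 at 3 and 20 days.

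Log2 values that turned sign were never called in both fits. IRS2 in CHLA10 at 3 days was -0.02 with DESeq2, relative log expression factors or totals only, -0.0034 with limma-voom and -0.0023 without the 4 libraries, and -0.07 to 0.07 without single libraries. IGF2R in A673 at 3 days was 0.01 with limma-voom, 0.21 without the 4 libraries and -0.16 to 0.18 without single ones. IGF1R in A673 at 20 days was -0.21 without the 4 libraries and -0.19 to 0.39 without single ones. Its time difference, 0.02 in the main fit, was -0.02 with totals only, -0.01 with no filter, -0.09 with limma-voom, -0.73 without the 4 libraries and -0.40 to 0.19 without single ones. The lowest adjusted p of that time difference over the alternatives was 0.00349 (edgeR), and 0.408 among the fits without single libraries. It thus passed in an alternative with the sign turned. Without single libraries IRS1 in CHLA10 at 3 days ranged from -0.02 to 0.19, IGF1R and IRS2 in CHLA10 at 20 days from -0.01 to 0.34 and -0.28 to 0.04, and the IRS2 time difference in A673 from -0.76 to 0.01. The cause was not tested.

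With the replicate number as a block, the time difference in CHLA10 had 1610 genes called, IRS2 in A673 at 3 days passed (-0.56, adjusted p = 0.0236, edgeR), as did the IRS2 difference between A673 and CHLA10 at 20 days (-0.78, adjusted p = 0.0383, edgeR), and IRS2 in CHLA10 at 3 days was -0.003, IGF2R in A673 at 3 days 0.01 and the IGF1R time difference in A673 -0.10. In CHLA10 at 20 days, where same-numbered libraries deviated together most, the block changed no call of the 7 genes. No IGF2 value was obtained with only the CHLA10 or TC32 groups, because it failed the filter there. Depth limits IGF2 alone: it had 10 counts or fewer in every group other than vehicle A673.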
